A study of Homo sapiens with 6 samples.

Results

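Heme breakdown and iron handling were followed through 10 genes in KYSE450, a human esophageal squamous cell carcinoma line with wild-type NRF2, and in KEAP1null-KYSE450, a monoclonal line made from it by CRISPR-Cas9 editing of KEAP1. The rule that lists them goes by name and uses no value, but it was written with earlier results of these data known. They were HMOX1, HMOX2, BLVRA, BLVRB, FTL, FTH1, FECH, TFRC, SLC40A1 and ABCB6, 10 of the 58884 rows of the expression matrix. Each line was represented by 3 libraries of total RNA from untreated cells, and both lines had the same medium. The edited line was 1 clone, so loss of KEAP1 and other differences of that clone cannot be told apart. No source states that the 3 libraries of a line came from separate cultures, and the p-values measure only the spread between libraries, which may be technical.

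Heme oxygenases open the heme ring and release iron, carbon monoxide and biliverdin, and biliverdin reductases turn biliverdin into bilirubin. Iron that is set free can be stored in ferritin, a shell of heavy and light subunits, exported by ferroportin or built into new heme by ferrochelatase. KEAP1 is the adaptor that hands the transcription factor NRF2 to degradation, and NRF2 binds antioxidant response elements, to which the heme-sensing repressor BACH1 can also bind. Iron regulatory proteins add a second layer of control, since they bind iron responsive elements, short hairpins in mRNA. Such a hairpin in a 5′ UTR holds back translation when iron is low, whereas those in the 3′ UTR of TFRC protect the mRNA from decay. The values below are mRNA levels and carry no information on translation.

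The hairpins are shown because they divide these genes by a feature other than mRNA level. The genes were listed for iron handling, so their choice is not independent of hairpins that iron regulatory proteins bind, and the shares below are a description. The main annotated transcript of each gene (gencode v44, hg38) was searched for a C, a stem of 5 base pairs (G-T pairs allowed) and a loop of 6 bases reading CAGTGN, an element of 17 bases. Of 20457 coding transcripts, 1.29% held such an element anywhere, 0.0978% held it in the 5′ UTR and 0.596% in the 3′ UTR. Among the 10 genes, FTH1, FTL and SLC40A1 had 1 each in the 5′ UTR and TFRC had 4 in the 3′ UTR, and the other 6 genes had 0. The sequences below are DNA letters in the direction of the transcript, with 6 flanking bases on each side and the loop in capitals.
FTH1, 5′ UTR, chr11:61967574-61967602, minus strand: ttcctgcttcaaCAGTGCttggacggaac
FTL, 5′ UTR, chr19:48965335-48965363, plus strand: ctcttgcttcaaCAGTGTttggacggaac
SLC40A1, 5′ UTR, chr2:189580661-189580689, minus strand: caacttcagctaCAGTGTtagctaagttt
TFRC, 3′ UTR, chr3:196050979-196051007, minus strand: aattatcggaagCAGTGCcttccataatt
TFRC, 3′ UTR, chr3:196050575-196050603, minus strand: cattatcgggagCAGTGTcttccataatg
TFRC, 3′ UTR, chr3:196050510-196050538, minus strand: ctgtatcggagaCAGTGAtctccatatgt
TFRC, 3′ UTR, chr3:196050463-196050491, minus strand: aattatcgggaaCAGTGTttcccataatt

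Promoter windows were examined for the core of the antioxidant response element, because the lines differ in the factor that degrades NRF2. RefSeq windows (GRCh38.p14) of 300 bases, 250 before and 50 after the transcription start, were matched for 8 of the 10 genes, all but HMOX1 and FTH1. The motif TGACNNNGC was searched on both strands. It was present in the windows of ABCB6 and FECH, and in 13.3% of all 35116 windows. In ABCB6 it lay on the strand of the gene and began at base -152 from the start. In FECH it lay on the opposite strand, and its first base in the printed direction was base -38. A match is a description of the letters and not evidence of binding, and no match says only that these letters are not in the window. The 250 bases before each start are given in the direction of transcription, with the match in capitals.
ABCB6, chr2:219218959-219219208, minus strand: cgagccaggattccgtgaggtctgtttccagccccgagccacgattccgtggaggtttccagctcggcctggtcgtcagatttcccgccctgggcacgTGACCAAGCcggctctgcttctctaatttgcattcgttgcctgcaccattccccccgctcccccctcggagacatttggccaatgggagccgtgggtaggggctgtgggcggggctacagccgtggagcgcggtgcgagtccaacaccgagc
FECH, chr18:57586703-57586952, minus strand: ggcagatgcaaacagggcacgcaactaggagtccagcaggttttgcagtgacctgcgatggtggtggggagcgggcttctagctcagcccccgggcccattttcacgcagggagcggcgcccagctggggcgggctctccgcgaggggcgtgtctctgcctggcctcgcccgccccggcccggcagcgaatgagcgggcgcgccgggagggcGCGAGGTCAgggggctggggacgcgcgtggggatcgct

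The deposited values were normalized counts, with a sum of 54829313 to 57380170 per library. A floor of 3 reads corresponded to 2.77 to 3.21 normalized counts, counting error only. Of 8 squamous and epithelial marker genes, all 8 were above the floor, with a summed level of 429722 to 553537 in KYSE450 and 852434 to 1022780 in KEAP1null-KYSE450. The keratins carried that sum upward (log2 fold change of KRT5 1.46, KRT8 0.81 and KRT18 0.71), while DSP (-1.69), SOX2 (-0.997), CDH1 (-0.82) and TP63 (-0.60) fell and EPCAM was at -0.023 (adjusted p = 0.87). Of 7 erythroid markers, 5 were at 0 in all 6 libraries and 1 was above the floor in any, and the sum was at most 27.3. Summed fibroblast markers were 624 to 853 and 352 to 437, almost all from COL1A1, summed immune markers 1.86 to 19.2 and 9.17 to 13.1, and summed endothelial markers 59.9 to 74.8 and 48.0 to 70.6. KEAP1 mRNA differed by -0.017 on the log2 scale between the lines (limma, adjusted p = 0.90), so it does not check the labels. In both lines the first library deviated from the other 2 with exon length (Spearman's rho across 12321 genes 0.295 and 0.293, a description only). The part of this, and of the marker sums, in the results was not tested. Values without both first libraries are given where they change the call of a named gene or a count printed for a list.

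Between the lines, 6 of the 10 genes were called higher in KEAP1null-KYSE450 and 0 were called lower, where a call required limma's p, adjusted by Benjamini-Hochberg, to be under 0.05 and the lines to differ by 1 or more on the log2 scale. None was called lower by edgeR or DESeq2 either, and 1, HMOX2, was lower at an unadjusted limma p under 0.05. The 6 higher genes were HMOX1, FTL, FTH1, FECH, SLC40A1 and ABCB6. Of all 16701 genes tested, 12.2% were called higher and 5.98% lower. Quantile normalization changed that balance, from 2045 higher and 999 lower to 1388 and 1289, and still called 6 of the 10 genes higher. By the adjusted p alone, 8 of the 10 genes rose and 1, HMOX2, fell, against 24.3% and 25.5% of all genes tested. The libraries of the lines did not overlap for 9 of the 10 genes, against 57.8% of all genes tested. The median log2 fold change of the 10 genes was 1.32, and that of all genes tested was 0.0041; the first does not depend on the fitted value of ABCB6. All 10 genes passed the filter of a mean of at least 10, although ABCB6 passed it only through KEAP1null-KYSE450. In bulk RNA, more cells with an mRNA and more mRNA per cell cannot be told apart.

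**Figure D1:**
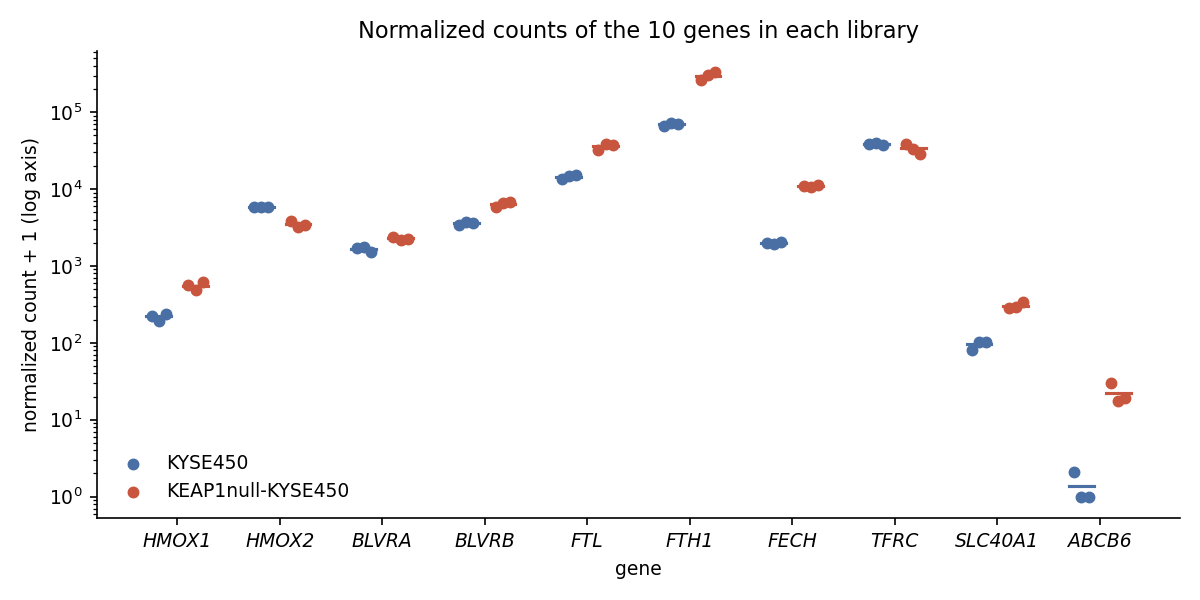
Normalized counts plus 1 on a log axis for each of the 10 genes, with 1 point per library (blue KYSE450, red KEAP1null-KYSE450) and a line at the mean of 3 libraries. The red points lie above the blue for 8 genes and below for HMOX2, while those of TFRC overlap.

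**Figure D2:**
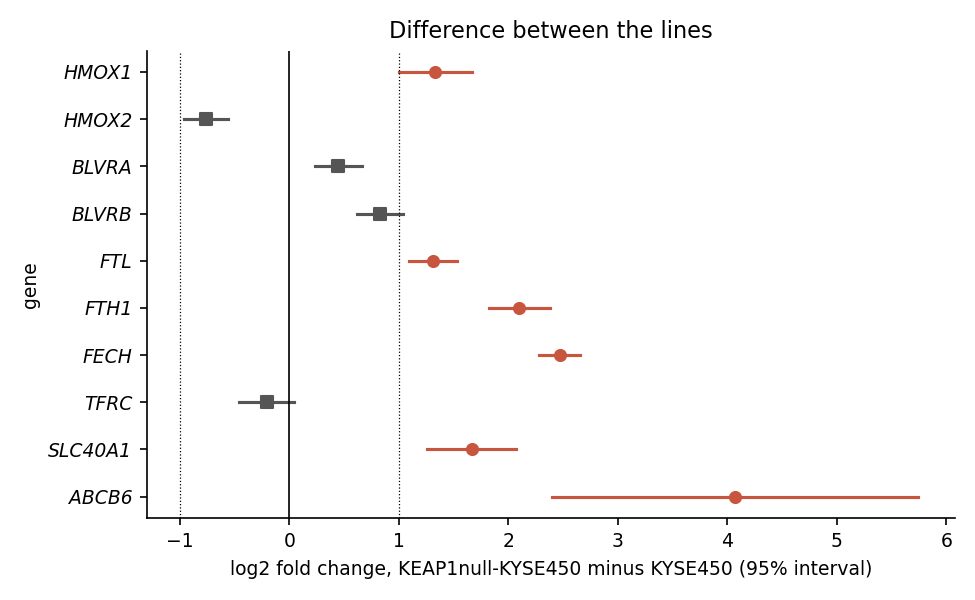
Log2 fold change of each gene, KEAP1null-KYSE450 minus KYSE450, from limma on log2 of the normalized count plus 1, with its 95% interval. Red circles are the 6 called genes, grey squares the other 4, and dotted lines mark a log2 fold change of 1 in either direction.

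The 2 heme oxygenases moved in opposite directions. HMOX1, the stress-inducible form (ENSG00000100292, chr22:35380361-35394214, plus strand), had 226, 194 and 240 normalized counts in KYSE450, library by library, against 568, 488 and 609 in KEAP1null-KYSE450. The lowest edited library was more than 2 times the highest parental one, and limma put the log2 difference at 1.33 with a standard error (SE) of 0.15 (adjusted p = 1.8e-05). HMOX2, the constitutive form (ENSG00000103415, chr16:4474690-4510347, plus strand), had 5843, 5920 and 5900 against 3792, 3227 and 3398. It fell by 0.76 on the log2 scale (SE 0.093, adjusted p = 2.9e-05), which is short of the fold threshold, and every edited library was below every parental one. The exons of HMOX2 share 3.05% of their bases with NMRAL1 on the opposite strand.

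HMOX2 remained the more abundant of the pair per exon length in every library. HMOX1 made up 4.58% to 5.61% of the summed heme oxygenase mRNA per length in KYSE450 and 18% to 20.8% in KEAP1null-KYSE450. The log2 ratio of HMOX1 to HMOX2 counts was -4.69, -4.92 and -4.62 in KYSE450 and -2.74, -2.72 and -2.48 in KEAP1null-KYSE450. The mean difference was 2.10, and the groups did not overlap (two-sided exact permutation test p = 0.10, n = 3 per line, the smallest p that 3 against 3 libraries allow). The sum of both heme oxygenases per kilobase of exon was 1839 ± 11.6 (SD, n = 3) in KYSE450 and 1269 ± 101 (SD, n = 3) in KEAP1null-KYSE450, so the summed level was lower in the edited line while the share of HMOX1 was higher.

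Both biliverdin reductases rose by less than the fold threshold. BLVRA (ENSG00000106605, chr7:43758680-43807342, plus strand), which reduces the alpha form of biliverdin, had 1702, 1770 and 1541 normalized counts against 2413, 2195 and 2223. The log2 difference was 0.45 (SE 0.10, adjusted p = 0.0027). BLVRB (ENSG00000090013, chr19:40447765-40465764, minus strand), which reduces the beta form of biliverdin and also flavins, had 3409, 3759 and 3613 against 5822, 6612 and 6718. It rose by 0.83 on the log2 scale (SE 0.095, adjusted p = 1.8e-05), and for both genes the lines did not overlap.

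The log2 ratio of BLVRA to BLVRB was -1.0, -1.09 and -1.23 in KYSE450 and -1.27, -1.59 and -1.60 in KEAP1null-KYSE450. The mean difference was -0.38 (exact permutation p = 0.10, n = 3 per line), with a gap between the nearest libraries much smaller than for the heme oxygenases. Per exon length, BLVRB was 2.44 ± 0.20 (SD, n = 3) times BLVRA in KYSE450 and 3.18 ± 0.39 (SD, n = 3) times in KEAP1null-KYSE450. Summed per kilobase of exon, the reductases were at 3145 ± 137 and 5208 ± 240 (SD, n = 3 per line).

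Ferritin held the most abundant mRNAs of the group per exon length, and both subunits rose. FTH1, the heavy subunit, which oxidizes ferrous iron (ENSG00000167996, chr11:61959718-61967634, minus strand), had 65429, 72860 and 69890 normalized counts in KYSE450 and 261096, 301232 and 333608 in KEAP1null-KYSE450. This was a log2 difference of 2.10 (SE 0.13, adjusted p = 5.7e-08). FTH1 took 0.115% to 0.130% of all counts in the parental libraries, where it ranked between 75 and 86 among all genes, and 0.469% to 0.598% in the edited libraries, where it ranked 9 in all 3. FTL, the light subunit, which helps the mineral core form (ENSG00000087086, chr19:48965309-48966879, plus strand), had 13569, 14793 and 15167 against 32584, 38063 and 37476. FTL rose by 1.31 on the log2 scale (SE 0.10, adjusted p = 5.0e-07). Both mRNAs carry a 5′ UTR hairpin, printed above.

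The heavy subunit rose further than the light one. The log2 ratio of FTL to FTH1 was -2.27, -2.30 and -2.20 in KYSE450 and -3.00, -2.98 and -3.15 in KEAP1null-KYSE450, a mean difference of -0.79 with no overlap (exact permutation p = 0.10, n = 3 per line). All 3 pairs of genes had this same p, and Benjamini-Hochberg adjustment over the 3 left it at 0.10. Per exon length, FTH1 was 2.08 ± 0.070 (SD, n = 3) times FTL in the parental line and 3.60 ± 0.24 (SD, n = 3) times in the edited line. The summed ferritin level per kilobase of exon was 51286 ± 2700 against 190404 ± 21133 (SD, n = 3 per line). Both values depend on the length used. The merged exons of FTH1 span 2004 bases and its main transcript 1203, while FTL has 871 by both measures. Levels per main transcript are given below.

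Reads from near-identical copies can be split between rows. The 16 rows named as FTL pseudogenes summed to 62.5 to 102 normalized counts in KYSE450 and 49.4 to 73.4 in KEAP1null-KYSE450, and the 25 FTH1 pseudogene rows to 171 to 199 and 699 to 752. These sums were 0.132% to 0.749% of the functional gene. FTH1 shares 63.2% of its merged exon bases with BEST1, on the opposite strand, and whether the counting used strand is not stated in the sources used here. BEST1 had 64.7 to 111 normalized counts in KYSE450 and 412 to 465 in KEAP1null-KYSE450, moving with FTH1 at a far lower level.

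**Figure D3:**
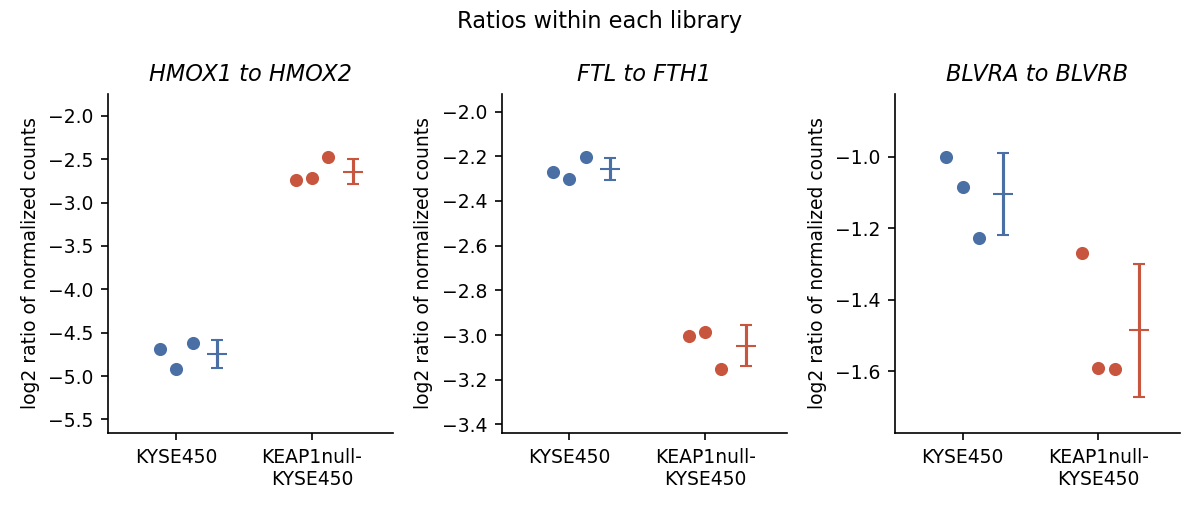
Log2 ratio of normalized counts within each library for 3 pairs of genes, each panel with its own axis, with 1 point per library and the mean ± SD of 3 libraries beside them. HMOX1 to HMOX2 was higher in KEAP1null-KYSE450, and FTL to FTH1 and BLVRA to BLVRB were lower.

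Iron export and uptake did not change alike. SLC40A1, ferroportin, the iron exporter of the cell membrane (ENSG00000138449, chr2:189560590-189583758, minus strand), had 80.2, 103 and 102 normalized counts in KYSE450 and 280, 294 and 334 in KEAP1null-KYSE450. Ferroportin mRNA rose by 1.67 on the log2 scale (SE 0.19, adjusted p = 1.5e-05), and the lines were well apart although the level was low. TFRC, the transferrin receptor that brings iron into the cell (ENSG00000072274, chr3:196012511-196082153, minus strand), had 38854, 39782 and 37555 against 38970, 33328 and 28981. The first edited library lay within the parental range and the other 2 lay below it. The log2 fold change was -0.21 with a 95% interval of -0.46 to 0.042 (adjusted p = 0.15). Without the first edited library it was -0.32 (adjusted p = 0.027), and without the first library of each line, an alternative chosen after seeing the data, -0.31 (adjusted p = 0.0038). Without KEAP1null-KYSE450 library 3 the value was -0.10 (limma, adjusted p = 0.54), and with quantile normalization -0.078 (limma, adjusted p = 0.58). On the recovered reads of 4 libraries it was -0.046 with edgeR (adjusted p = 0.87) and -0.074 with DESeq2 (adjusted p = 0.77). Whether TFRC fell therefore turned on the libraries and the processing used. The 3 genes with a hairpin in the 5′ UTR were called higher, and TFRC, with hairpins in the 3′ UTR, was not called. Of the 6 genes without hairpins 3 were called higher, with ABCB6 among them, beside 12.2% of all genes tested. Whether the hairpins relate to the mRNA differences was not tested, and these genes are too few to tell.

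FECH, ferrochelatase, ends heme synthesis by inserting iron into protoporphyrin (ENSG00000066926, chr18:57544377-57586732, minus strand). It had 2012, 1912 and 2065 normalized counts in KYSE450 and 10988, 10732 and 11391 in KEAP1null-KYSE450. The log2 difference was 2.47 (SE 0.087, adjusted p = 3.8e-10). The libraries of each line lay close together and the means differed by 5.53 times.

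ABCB6, a transporter of porphyrins (ENSG00000115657, chr2:219209772-219218994, minus strand), was near the limit of detection. It had 1.07, 0 and 0 normalized counts in KYSE450, all under the floor, and 28.6, 16.3 and 18.2 in KEAP1null-KYSE450. In the 4 libraries whose reads could be recovered, there was 1 read in the 2 KYSE450 libraries and 47 in the 2 KEAP1null-KYSE450 libraries, a ratio of 45.7 with an exact 95% interval of 7.81 to 1843 for counting error only. It was called higher (adjusted p = 8.6e-04), but its fitted log2 fold change depends on the pseudocount, 6.5 with 0.1, 4.07 with 1 and 1.56 with 10, and is not a bound. Without any 1 of the 3 edited libraries its mean dropped under the filter and it was not tested, so that 5 of the 10 genes were then called higher. The same held without the first library of each line. ABCB6 also shares 54.6% of its merged exon bases with the protein-coding gene ENSG00000284820 on the same strand, which had 0 to 4.04 and 0 to 7.14 normalized counts. The shared bases number 2841, and the main transcript of ABCB6 has 2980 bases. How reads in exons shared by genes were counted is not stated in the sources used here. Whether the low counts of ABCB6 reflect this overlap was not tested, so they do not show that its mRNA was nearly absent.

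Compared per kilobase of merged exon, the levels in KYSE450 ran from FTH1 (34627) and FTL (16659) through TFRC (2229), BLVRB (2228), HMOX2 (1743), BLVRA (918), FECH (179), HMOX1 (95.3) and SLC40A1 (22.5) to ABCB6 (0.068). Of these neighbours only TFRC and BLVRB overlapped between libraries. In KEAP1null-KYSE450 the order was FTH1 (149025), FTL (41379), BLVRB (3958), TFRC (1943), BLVRA (1250), HMOX2 (1028), FECH (992), HMOX1 (241), SLC40A1 (71.7) and ABCB6 (4.04), and only HMOX2 and FECH overlapped. By this measure BLVRA and HMOX2 changed places, and BLVRB, level with TFRC in KYSE450, stood above it in KEAP1null-KYSE450. Both of these depended on the length used. Merged exons are long for some genes, and with the length of the main transcript instead, an alternative chosen after seeing the data, TFRC stood above BLVRB in KYSE450 without overlap (7728 against 4498) and overlapped with it in KEAP1null-KYSE450 (6736 against 7990). With that length BLVRA and HMOX2 also overlapped in KEAP1null-KYSE450 (2120 against 2076), and HMOX2 stood clear of FECH (1435). With main transcripts FTH1 stood at 57683 and FTL at 16659 in KYSE450, and at 248250 and 41379 in KEAP1null-KYSE450. The shares, ratios and sums per length given above for pairs of genes use merged exons and would differ with main transcripts.

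The differences were set beside those of the genes around each locus. The median log2 fold change of the 40 nearest tested genes lay between -0.24, for FTL, and 0.46, for TFRC. For FTH1 it was 0.31, for BLVRA 0.12 and for HMOX2 -0.14, and for the other 6 genes it was between -0.24 and -0.040. Around TFRC, whose own value was -0.21, the nearest 20 genes had a median of 1.32.

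Of 11 further genes of heme synthesis, 10 were tested and 0 were called by limma, edgeR or DESeq2. By limma 4 had an unadjusted p under 0.05, with 2 higher and 2 lower by the adjusted p alone and a median of 0.025. Of all genes tested, 12.2% were called higher and 5.98% lower, and by the adjusted p alone 24.3% rose and 25.5% fell. With 1 library left out, 1 to 2 of the 10 rose and 2 fell by the adjusted p alone. ALAS1, the rate-limiting first enzyme outside red cells, had 3471, 2916 and 3255 normalized counts in KYSE450 and 2565, 2189 and 2126 in KEAP1null-KYSE450. It fell by 0.49 on the log2 scale (adjusted p = 0.0025), with no overlap. ALAS2, the erythroid form, was at 0 in all libraries.

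Of 14 genes of heme transport and sensing, 13 were tested, 2 were called higher and 0 lower, beside 12.2% and 5.98% of all genes tested. With edgeR and DESeq2 also 0 were called lower, and the median was -0.048. By the adjusted p alone 4 of the 13 rose and 0 fell, beside 24.3% and 25.5% of all genes tested. At an unadjusted p under 0.05, 3 were lower. Without the first library of each line 4 fell by the adjusted p alone, namely FLVCR1, PGRMC1 (-0.30), PGRMC2 (-0.45) and SLC46A1 (-0.36), the last 3 named after their values were seen. SLC48A1, which moves heme out of endolysosomes, had 780, 647 and 754 normalized counts against 1750, 1541 and 1766, a difference of 1.21 on the log2 scale (adjusted p = 4.0e-06). Tested by limma against a fold change of 2, SLC48A1 was no longer past the threshold (adjusted p = 0.44). ABCG2, an efflux pump that also carries porphyrins, had 137, 131 and 136 against 830, 793 and 783, a difference of 2.56 (adjusted p = 1.7e-08). For both, every edited library lay far above every parental one. BACH1, the heme-sensing repressor of HMOX1, had 1711, 1622 and 1556 against 2945, 2855 and 2897 and rose by 0.83 (adjusted p = 1.5e-05). FLVCR1, linked to heme export and choline transport, had 1801, 1798 and 1772 against 1748, 1371 and 1293, a difference of -0.30 on the log2 scale (adjusted p = 0.057). Without the first edited library, the value for FLVCR1 was -0.43 (adjusted p = 0.0071), and without the first library of each line -0.42 (adjusted p = 0.0015).

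Of 10 tested genes of iron uptake other than TFRC, 4 were called lower and 1 higher, beside 5.98% and 12.2% of all genes tested. The median was -0.63. STEAP1, STEAP2 and STEAP3 belong to a family of metalloreductases, of which STEAP3 reduces iron released from transferrin. STEAP1 had 2880, 3970 and 4073 normalized counts in KYSE450 and 839, 862 and 1026 in KEAP1null-KYSE450 (log2 fold change -1.99, adjusted p = 2.2e-07). The log2 fold changes of STEAP3 and STEAP2 were -1.05 and -1.04, at the threshold. STEAP3 passed under it without KYSE450 library 1 (-0.95) or KEAP1null-KYSE450 library 3 (-0.91), and STEAP2 without KEAP1null-KYSE450 library 2 (-0.94). Both also missed the fold threshold under quantile normalization (-0.98 and -0.95), edgeR (-0.88 and -0.95) and DESeq2 (-0.91 and -0.98). LCN2, lipocalin, which binds iron-laden siderophores, had 2671, 2433 and 1803 against 1099, 701 and 766 (-1.44, adjusted p = 3.2e-05). Tested by limma against a fold change of 2, LCN2 was no longer past the threshold (adjusted p = 0.17), and neither were STEAP2 and STEAP3. CYBRD1, a ferric reductase, went the other way, from 398, 435 and 313 to 1926, 1649 and 1389 (2.11, adjusted p = 3.3e-07). SLC11A2, the ferrous iron carrier DMT1, fell by 0.47 on the log2 scale (adjusted p = 0.0053).

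Iron storage and delivery beside ferritin gave 1 call in each direction among 6 genes tested, with a median of -0.17. Of all genes tested, 12.2% were called higher and 5.98% lower. NCOA4, the receptor that leads ferritin to breakdown, had 14223 to 15421 normalized counts in KEAP1null-KYSE450, inside the range of 13534 to 16240 in KYSE450 (log2 fold change -0.021, adjusted p = 0.88). The sign of this small value turned under several settings. PCBP3 and PCBP4 are poly(C)-binding proteins, a family with members that deliver iron to ferritin. PCBP3 had 1.07, 3.03 and 0, at or under the floor, against 48.0, 68.3 and 37.3 and was called higher (adjusted p = 8.8e-05). Like ABCB6, it passed the filter only through KEAP1null-KYSE450, and its fitted log2 fold change ran from 2.41 to 6.86 over the alternatives. PCBP4 had 204, 229 and 214 against 90.4, 98.9 and 124, a difference of -1.05 (adjusted p = 7.4e-04) that moved to -0.95 without KEAP1null-KYSE450 library 1 and to -0.99 without the first library of each line.

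Among 7 tested genes of iron export and its hormonal control, 2 were called higher and 2 lower, beside 12.2% and 5.98% of all genes tested. The median was -0.68. HEPHL1, a ferroxidase of the hephaestin family, had 1.07, 14.2 and 0.93 normalized counts against 86.7, 126 and 71.6 (log2 fold change 4.57, adjusted p = 1.8e-04). It passed the filter only through KEAP1null-KYSE450, and its fitted value was 5.54 without KYSE450 library 2 and 2.84 with a pseudocount of 10. BMP6 and BMP2 are ligands that induce hepcidin in the liver. BMP6 rose from 150, 121 and 123 to 629, 415 and 554 (2.00, adjusted p = 3.0e-06), and BMP2 fell from 227, 211 and 213 to 30.5, 11.2 and 17.2 (-3.51, adjusted p = 3.4e-06), so the libraries of these ligands separated in opposite directions. FURIN, a protease that cleaves prohepcidin, changed by -1.17 on the log2 scale (adjusted p = 4.7e-05), or -0.99 without KYSE450 library 1. HAMP, which encodes hepcidin, the hormone that removes ferroportin, was at 0 in all 6 libraries.

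The iron regulatory proteins and the mitochondrial iron genes gave 0 calls among 5 and 18 genes tested by limma, edgeR or DESeq2, with medians of -6.7e-04 and -0.070. By the adjusted p alone, 1 of the 5 rose and 2 fell, and 4 of the 18 rose and 2 fell, while 3 and 7 genes had an unadjusted p under 0.05. Of all genes tested, 24.3% rose and 25.5% fell by the adjusted p alone. With 1 library left out, 0 to 1 of the 5 rose and 1 to 2 fell, and 1 to 5 of the 18 rose and 1 to 3 fell. Without the first library of each line, 5 of the 18 rose and 3 fell. ACO1, the first iron regulatory protein, had 3348, 3267 and 3082 normalized counts in KYSE450 and 2818, 2340 and 2269 in KEAP1null-KYSE450, and fell by 0.39 on the log2 scale (adjusted p = 0.0082). On the recovered reads of 4 libraries ACO1 was not past 0.05 with edgeR (-0.28, adjusted p = 0.20) or DESeq2 (-0.31, adjusted p = 0.18). IREB2, the second, had 5502, 5851 and 5370 against 6572, 6099 and 5653, with overlap (0.13, adjusted p = 0.27). FBXL5, the iron sensor that leads IREB2 to degradation, had 2649, 2989 and 3131 against 3409, 4045 and 3554 (0.33, adjusted p = 0.020), a rise that missed the threshold without KEAP1null-KYSE450 library 2 (adjusted p = 0.11). The rise of FBXL5 also missed it with edgeR (adjusted p = 0.085), DESeq2 (adjusted p = 0.11) and limma without trend (adjusted p = 0.066). Over all 81 genes of the 7 lists, 69 were tested, 6 were called higher and 7 lower, beside 12.2% and 5.98% of all genes tested, and the median was -0.048. By the adjusted p alone 18 rose and 19 fell, or 19 and 24 without the first library of each line. In that setting 6 genes of the lists, not 7, were called lower.

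**Figure D4:**
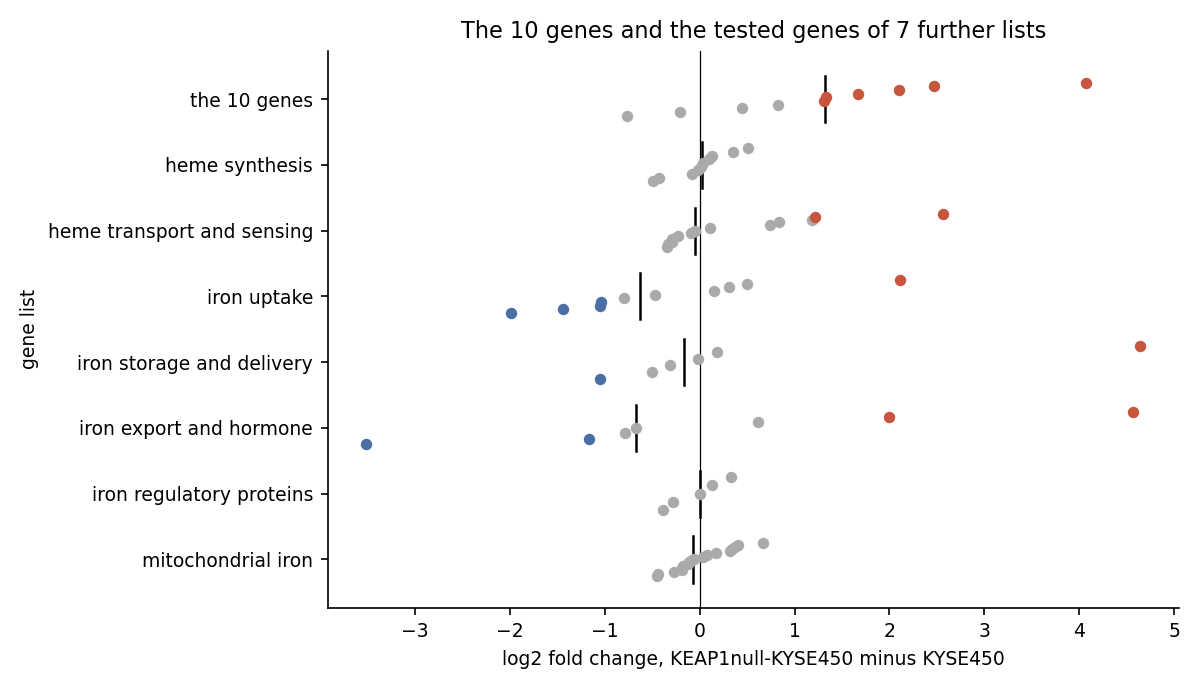
Log2 fold change, KEAP1null-KYSE450 minus KYSE450, of the 10 genes and of the tested genes of 7 further lists, with 1 point per gene (red called higher, blue called lower, grey not called) and a black bar at the median. The median of the 10 genes was 1.32, and those of the lists lay between -0.68 and 0.025.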

How the data were processed

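RNA sequencing of 3 KYSE450 and 3 KEAP1null-KYSE450 libraries was analysed. By the methods and the submitters' processing notes, the authors aligned reads to hg38 with STAR 2.6.90c and counted them per gene with featureCounts 1.5.1. The deposited values are normalized counts, a signal per gene that the authors scaled between libraries. The methods name a RefSeq annotation, while rows carry Ensembl identifiers, which were placed with gencode v44. Columns name the line but no replicate, so libraries are numbered in column order.

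The test of the lines used limma 3.58.1 (R 4.3.3; linear model, moderated with trend) after adding a pseudocount of 1 and taking log2, for 16701 genes with a mean of at least 10, with Benjamini-Hochberg adjustment. Fold changes are on that scale and understate the change of low genes. Thresholds were 0.05 for the adjusted p and 1, in either direction, for the log2 fold change. Each value is a multiple of what 1 read is worth. In 4 libraries 100% of values gave whole reads within 0.1, and edgeR 4.0.16 and DESeq2 1.42.0 were run on these as alternatives. Other alternatives were pseudocounts, filters, scalings, a test against a fold change of 2, no fold cutoff and each library left out. The test was tried on simulated data.

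The 10 genes and 7 lists were chosen with earlier results of these data known. From the lists, ACO1, IREB2, FBXL5, BACH1, NCOA4, ALAS1, FLVCR1, SLC48A1, SLC11A2 and HAMP were named, with up to 4 called genes in each direction per list. ALAS2, BEST1, marker genes and 3 heme transport genes are named outside that rule.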

Additional observations from a re-analysis of the deposited data

How the results depend on the processing

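No paired analysis was possible because the columns carry no replicate numbers. Each of the 10 genes kept its direction under every alternative run. Without a fold cutoff, 8 of the 10 were higher and 1 lower, namely HMOX2 (-0.76), with BLVRA (0.45) and BLVRB (0.83) now past the threshold. Of the 69 tested genes of the lists, 18 were then higher and 19 lower, beside 24.3% and 25.5% of all genes tested. Tested against a fold change of 2, HMOX1 (1.33, adjusted p = 0.27) and FTL (1.31, adjusted p = 0.066) were no longer past the threshold, 4 of the 10 were called higher, and 2 genes of the lists were called lower. With a mean of at least 100, ABCB6 was not tested and 5 of the 10 were called higher. Leaving out 1 library gave 5 or 6 of the 10 called higher. NCOA4 turned positive with equal totals (0.012), quantile normalization (0.19), edgeR (0.048) and DESeq2 (0.021), and ranged from -0.094 to 0.038 with 1 library left out; the cause was not tested. edgeR and DESeq2, on the recovered reads of 4 libraries, both called 6 of the 10 higher and 0 lower, and with quantile normalization as well as with either tool 5 genes of the lists, not 7, were called lower. The exact test of 3 ratios cannot go under 0.10 at this size. The medians around each locus depend on how many genes are taken: around FTH1 they were 0.48 and 0.16, and around TFRC 1.32 and 0.38, with 10 and 40 genes on each side.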
